A study of Mus musculus with 12 samples.

Results

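The G1 regulators described here are the 3 D-type cyclins (Ccnd1, Ccnd2, Ccnd3), their 2 kinases (Cdk4, Cdk6) and 5 genes for inhibitors of cyclin-dependent kinases (Cdkn1a, Cdkn1b, Cdkn2a, Cdkn2c, Cdkn2d), read as genes of entry into or exit from the cell cycle. They were chosen by name: every probe whose platform annotation gives 1 of these 10 symbols was taken, which gave 26 of 45281 probes on the array, for 10 of the 19057 genes it names. A probe was kept where at least 3 arrays gave it a detection p-value under 0.05. This left 20416 probes of 10497 genes in all, among them 23 of the 26 probes and at least 1 for each of the 10 genes.

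The arrays measured RNA of thymocytes sorted as CD4-CD8 double-negative, the stage before thymocytes carry either coreceptor, from C57 BL/6 mice of 2 to 3 months. There were 3 groups: wild type (6 arrays), NHD13 transgenic (3 arrays) and NHD13 transgenic with Lyl1 knockout (3 arrays, called the knockout group here). NHD13 is the NUP98-HOXD13 fusion gene, a leukaemia oncogene that both transgenic groups carry. In the published line it is driven by Vav1 elements active across blood cells, although the labels name no promoter. Lyl1 encodes a basic helix-loop-helix factor of blood stem and progenitor cells. The knockout group has no counterpart without the transgene, so its comparisons concern Lyl1 loss in NHD13 cells only. Whether an array holds 1 animal or a pool is not stated, so p-values measure the spread between these arrays.

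D-type cyclins bind CDK4 or CDK6 and, with cyclin E and CDK2, phosphorylate the retinoblastoma protein, which releases E2F factors and lets a cell pass from G1 into S phase. INK4 inhibitors (p16Ink4a, p18Ink4c and p19Ink4d, from Cdkn2a, Cdkn2c and Cdkn2d) bind CDK4 and CDK6, and CIP/KIP inhibitors (p21 from Cdkn1a, p27 from Cdkn1b) act mainly on CDK2 complexes. In the thymus, double-negative cells divide in bursts before and after rearranging the T cell receptor beta gene, with cyclin D3 and CDK6 needed for normal expansion.

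Each array detected 17168 to 19464 probes (37.9% to 43% of all). Cd3e and Thy1, markers of T lineage cells, were detected on all arrays, Cd8a on none and Cd4 on 4 of 12, while the brightest Cd8b1 probe was detected on all. Among other T lineage markers, the brightest Cd5 probe was detected on none. Cd3d read 11.88, 11.73 and 10.79 in NHD13 against 13.4 to 13.53 in wild type. The Lyl1 probe matched the labels, with log2 signals of 6.79 to 7.39 in wild type, of 11.18, 11.19 and 11.1 in NHD13, and no detection in the knockout group. Knockout replicate 1 stood apart. Its Cd3e signal was 9.58 against 13.15 and 13.09 in replicates 2 and 3, and the log2 of its summed signal over 11 myeloid markers was 16.16 against 8.48 and 8.33. NHD13 replicate 2 also had a high myeloid sum, at 15.09, where wild type spanned 11.36 to 13.76. Clustering on the signal of undetected probes, with the number of classes set to 2 beforehand, gave 2 background classes. The lowest correlation within a class was -0.069 and the highest between classes -0.134. Wild-type replicates 1 to 3 and the knockout group fell in class 1, wild-type replicates 4 to 6 and NHD13 in class 2. Sex, read from Xist and Y-linked probes, was male for wild-type replicates 1 to 3 and knockout replicate 3 and female for the rest. Knockout and NHD13 arrays share no class, so that comparison takes its class adjustment from wild type alone. Within wild type the classes coincide with sex.

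Promoters are printed for the 2 genes called in NHD13 and for Cdkn2a, whose 2 starts serve different proteins. RefSeq windows of assembly GRCm38.p6, from 250 bases before to 50 after a transcript start, were found for 8 of the 10 genes (12 windows). Both strands were searched for CACGTG, the E-box that MYC with MAX is known to bind, and for TTTCCCGC, an E2F-type site, and matches are in capitals. The Cdk4 window (chr10:127063285-127063584, plus strand) holds 4 copies of CACGTG, beginning 172, 118, 98 and 11 bases before the start. Of all 32851 windows, 8 (0.0244%) hold 4 or more, and 7.15% hold 1 or more. Of the 12 windows 3 hold CACGTG, the others being the Cdk6 window and 1 Cdkn2c window, with 1 copy each. Neither Cdk6 nor Cdkn2c was called in any comparison. The Cdkn2d window (chr9:21291160-21291459, minus strand) holds neither motif. For Cdkn2a the upstream window (chr4:89294570-89294869, minus strand) is at the start known for Arf and the downstream window (chr4:89282143-89282442, minus strand) at that known for p16Ink4a. TTTCCCGC stands in the upstream window, as in 1.07% of all windows. A match in these letters is a description and shows no binding.
Cdk4: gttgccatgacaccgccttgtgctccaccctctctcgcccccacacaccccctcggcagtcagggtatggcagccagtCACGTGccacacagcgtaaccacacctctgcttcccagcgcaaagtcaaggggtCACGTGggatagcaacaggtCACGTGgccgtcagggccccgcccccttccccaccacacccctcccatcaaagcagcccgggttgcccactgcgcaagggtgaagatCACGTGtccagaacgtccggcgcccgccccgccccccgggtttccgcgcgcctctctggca
Cdkn2d: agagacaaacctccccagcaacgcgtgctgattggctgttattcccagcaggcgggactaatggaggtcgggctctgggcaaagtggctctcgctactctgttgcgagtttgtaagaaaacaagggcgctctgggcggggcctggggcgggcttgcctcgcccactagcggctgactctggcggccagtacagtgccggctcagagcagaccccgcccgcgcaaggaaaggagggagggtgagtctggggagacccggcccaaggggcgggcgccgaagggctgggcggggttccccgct
Cdkn2a, upstream start: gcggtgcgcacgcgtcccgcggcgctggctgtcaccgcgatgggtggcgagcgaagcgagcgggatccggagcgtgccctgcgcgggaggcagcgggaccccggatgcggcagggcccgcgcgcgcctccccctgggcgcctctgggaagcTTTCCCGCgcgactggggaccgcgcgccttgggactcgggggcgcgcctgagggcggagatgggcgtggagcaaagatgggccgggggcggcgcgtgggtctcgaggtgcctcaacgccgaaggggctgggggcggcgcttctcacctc
Cdkn2a, downstream start: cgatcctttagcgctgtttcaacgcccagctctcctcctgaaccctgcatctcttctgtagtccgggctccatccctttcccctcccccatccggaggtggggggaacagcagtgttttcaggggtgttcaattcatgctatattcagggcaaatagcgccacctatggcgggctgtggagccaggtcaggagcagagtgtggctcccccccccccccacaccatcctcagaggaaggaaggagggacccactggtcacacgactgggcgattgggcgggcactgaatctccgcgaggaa

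In NHD13 against wild type, 1 inhibitor gene rose and 1 kinase gene fell. Cdkn2d rose 2.8-fold and Cdk4 fell 1.52-fold, and the other 8 genes did not pass limma's test at an adjusted p under 0.05, counted by the brightest probe of each gene. That is 2 of 10 genes, where 24.2% of all measured genes were called, 11.6% higher and 12.6% lower. By probe it was 3 of 23, where 21.0% of all kept probes were called. The groups did not overlap for 2 of the 10 genes, against 30.0% of all genes. The median log2 change of the 10 genes was -0.24, beside -0.00108 over all genes. These shares lie near or below the background, so as a group the G1 regulators were not called more often than other genes.

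In the knockout group against NHD13, Cdkn2d fell and the other 9 genes did not pass. This is 1 of 10 genes, where 22.2% of all genes were called, and 4 of 23 probes, where 21.0% of all probes were. Calls of lower genes made up 9.22% of all genes. Groups without overlap were found for 1 of 10 genes, against 38.3% of all. Against wild type, 0 of 10 genes passed in the knockout group by limma (1 at an unadjusted p under 0.05), where 8.30% of all genes were called. By probe it was 1 of 23 there, where 9.57% of all probes were called. The first and last comparisons share the wild-type arrays and the first and second share the NHD13 arrays, so their values are given side by side and are not independent.

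**Figure D1:**
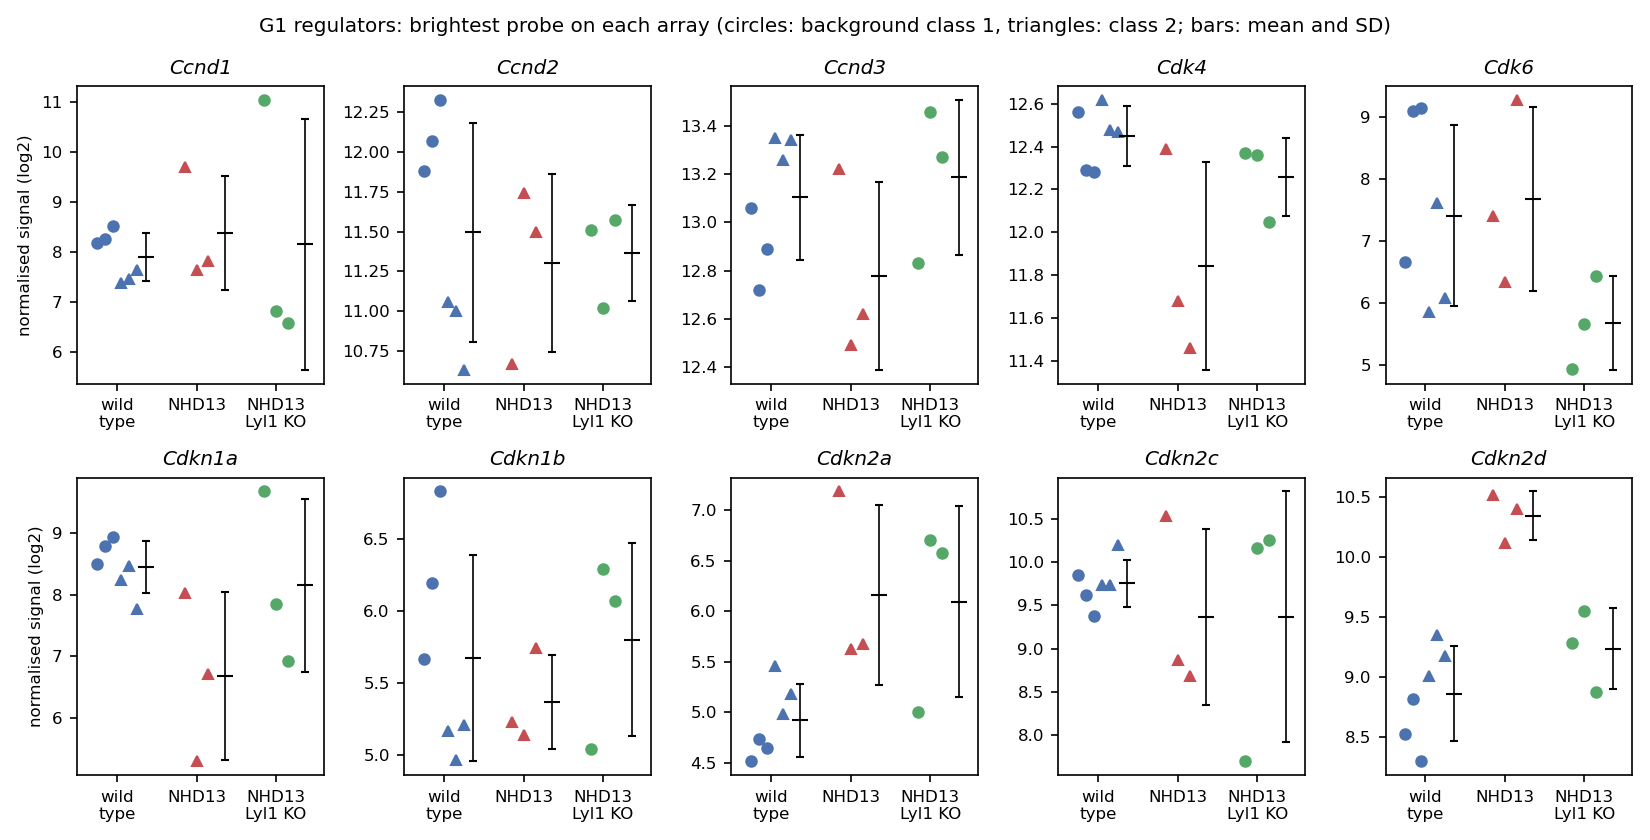
Normalised log2 signal of the brightest probe of each of the 10 G1 regulators on the 12 arrays, with each group's mean and SD as a bar; circles are arrays of background class 1 and triangles of class 2, and each panel has its own axis. For Cdkn2d the 3 NHD13 arrays (10.12 to 10.52) sit above all 9 others, while for Ccnd1 knockout replicate 1 (11.04) sits far from the other knockout arrays (6.82 and 6.58).

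Ccnd1, the cyclin D1 gene, is induced by growth factor signalling in many tissues and is usually low in T lineage cells. Its brightest probe (ILMN_1221503) had log2 signals of 7.37 to 8.52 in wild type, with a median of 7.91. NHD13 replicates 1 to 3 had 9.69, 7.64 and 7.81, and knockout replicates 1 to 3 had 11.04, 6.82 and 6.58. All 3 groups overlapped, and replicate 1 was the high array of both transgenic groups. Knockout replicate 1 lay 4.34 above the mean of the other 2, a gap wider than that of 99.2% of kept probes. It is the array with the high myeloid sum and low Cd3e given above, and the part of those cells in its Ccnd1 signal was not tested. None of the 3 comparisons passed, with changes of 0.48 ± 0.83 (SE) in NHD13 against wild type, -0.23 ± 0.96 in knockout against NHD13 and 0.25 ± 0.83 in knockout against wild type (adjusted p from limma of 0.726, 0.89 and 0.884). Without that array and with the class as a block, the change from NHD13 to knockout was -2.51 (adjusted p = 0.0272 from limma). That setting was added after seeing the data and was the only 1 of 19 alternatives to pass. Leaving out the array alone gave -1.68, and no fit without 1 array passed (lowest adjusted p = 0.0505). A second Ccnd1 probe (ILMN_2601471) had the same high arrays, at 9.17 in NHD13 replicate 1 as the group's highest and 10.56 in knockout replicate 1.

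Ccnd2, the cyclin D2 gene, responds to cytokine and pre-T cell receptor signals in lymphocytes. Its brightest probe (ILMN_2700166) had log2 signals of 10.63 to 12.33 in wild type, with a median of 11.47. The values were 10.67, 11.74 and 11.5 in NHD13 and 11.51, 11.02 and 11.57 in the knockout group. The groups overlapped throughout, and the split lay inside wild type: replicates 1 to 3 averaged 12.1 and replicates 4 to 6 averaged 10.9. These sets of wild-type arrays differ in both background class and sex, which cannot be told apart there. No comparison passed for this probe or for the second brightest (ILMN_2700168), whose change from NHD13 to knockout was -0.1 ± 0.4.

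Another Ccnd2 probe (ILMN_1225932) went another way. It read 8.94, 10.45 and 9.33 in NHD13 and 8.02, 8.29 and 8.39 in the knockout group, so all knockout arrays were lower. The change was -1.34 ± 0.34, a 2.53-fold fall that passed limma's test (adjusted p = 0.0157), and with the class as a block it was -1.85 (adjusted p = 0.0209). With only those 2 groups in the fit it did not pass (adjusted p = 0.0791). The probes of Ccnd2 therefore disagree, and the sources used here do not say which transcript each one reads. In wild type this probe spanned 8.78 to 9.47.

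Ccnd3, the cyclin D3 gene, is the D cyclin that immature thymocytes depend on for expansion. Its brightest probe (ILMN_3131063) was read at 12.72 to 13.35 in wild type (median 13.16). NHD13 had 13.22, 12.49 and 12.62, and the knockout group had 12.83, 13.46 and 13.27. NHD13 replicates 2 and 3 lay below every wild-type array, and replicate 1 lay inside their range. The changes of -0.33 ± 0.22 in NHD13 against wild type and 0.41 ± 0.25 in knockout against NHD13 did not pass (adjusted p from limma of 0.32 and 0.272). With array weights, which give less influence to arrays that deviate more, the NHD13 change was -0.56 (adjusted p = 0.0368) and that from NHD13 to knockout 0.66 (adjusted p = 0.0383). The latter also passed with the class as a block once knockout replicate 1 was left out, at 1.02 (adjusted p = 0.0397). That setting was added after seeing the data. The 2 changes passed in 1 of 25 and 2 of 19 alternatives.

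A second Ccnd3 probe (ILMN_1246473) varied more within wild type than between groups. Wild-type replicates 1 to 6 had 5.76, 9.59, 9.9, 5.65, 9.03 and 6.46. The range of 4.25 was wider than that of 99.8% of kept probes. It does not follow the background classes, since each class holds high and low arrays. NHD13 had 9.87, 6.54 and 8.77 and the knockout group 8.41, 9.44 and 9.13, with no comparison passing.

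**Figure D2:**
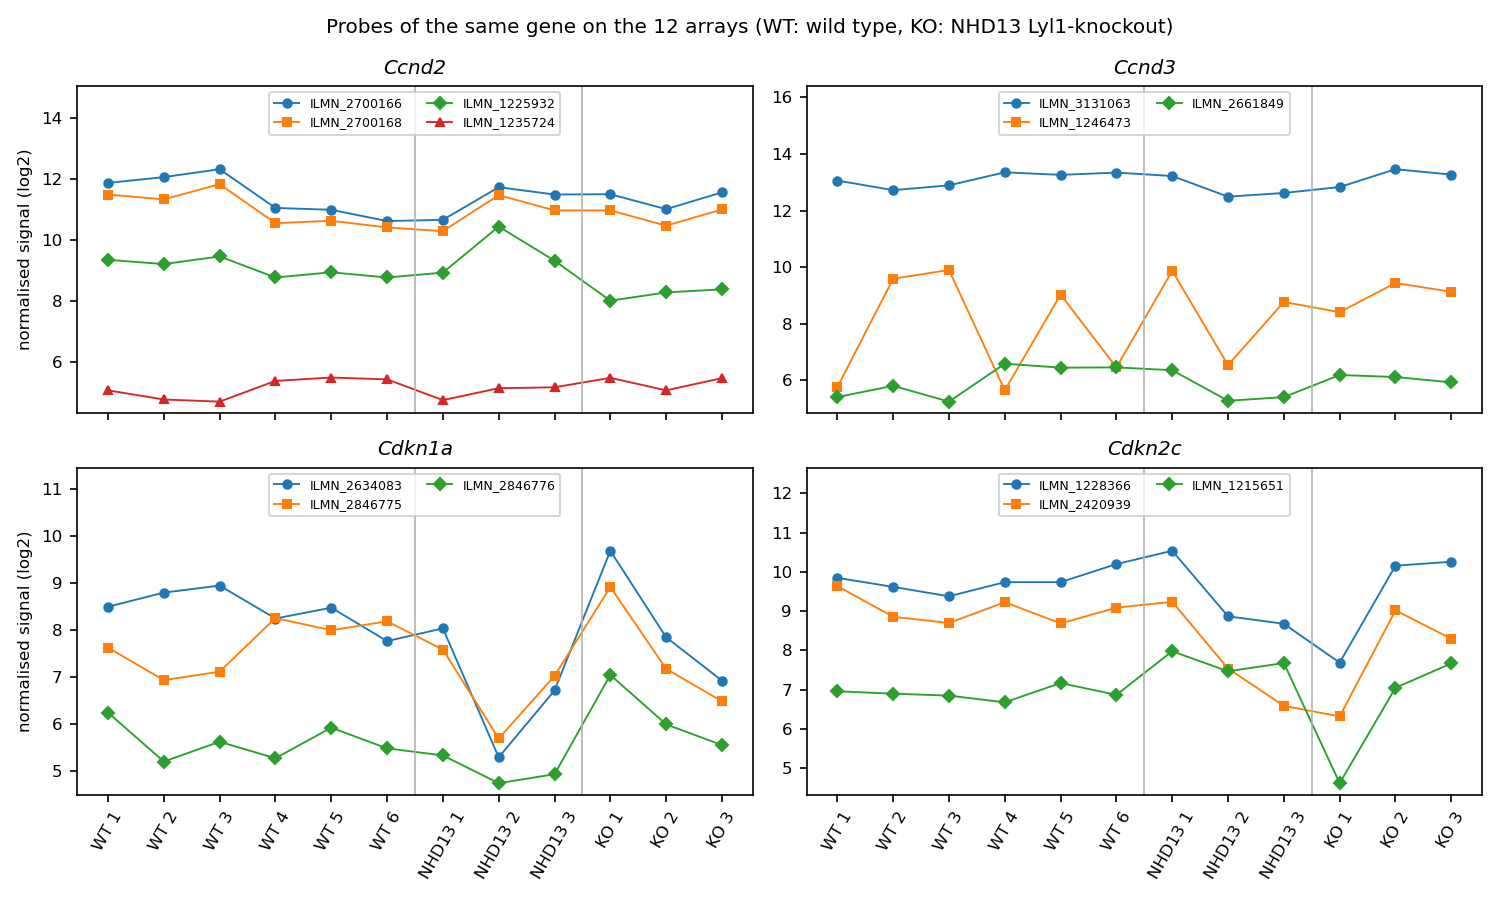
Normalised log2 signal of each kept probe of Ccnd2, Ccnd3, Cdkn1a and Cdkn2c on the 12 arrays in group order, with grey lines between groups; lines join the values of a probe and imply no order of replicates. The Ccnd3 probe ILMN_1246473 moves over 4.25 within wild type, and all 3 Cdkn2c probes are lowest in knockout replicate 1.

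Cdk4 encodes the kinase partner of the D cyclins in most dividing cells. Its brightest probe (ILMN_2690976) had log2 signals of 12.28 to 12.62 in wild type, with a median of 12.48. NHD13 replicates had 12.39, 11.68 and 11.46, and knockout replicates 12.37, 12.36 and 12.05. Replicate 1 of NHD13 lay inside the wild-type range and the other 2 below it. The change in NHD13 was -0.61 ± 0.2, which passed narrowly (adjusted p = 0.046 from limma). It passed in 8 of 25 alternative settings and was below 0 in all of them. Leaving out any 1 wild-type array, NHD13 replicate 2 or NHD13 replicate 3 ended the call, with adjusted p of 0.0534 to 0.0795 over the wild-type arrays, and of 0.168 and 0.226 for the 2 NHD13 arrays. With the class as a block it was 0.0581.

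The dimmer Cdk4 probe (ILMN_2646203) fell as well. It read 9.04 to 9.4 in wild type (median 9.12), 8.92, 8.14 and 8.41 in NHD13 and 9.61, 9.33 and 8.86 in the knockout group. All NHD13 arrays were below all wild-type arrays, with a change of -0.68 ± 0.2 (adjusted p = 0.0338 from limma), and with the class as a block it was -0.79 (adjusted p = 0.0367). In the knockout group this probe was higher than in NHD13 by 0.78 ± 0.24 (adjusted p = 0.036), although knockout replicate 3 lay below NHD13 replicate 1. That call was lost without knockout replicate 1 (adjusted p = 0.11) and with the class as a block (adjusted p = 0.061). The brighter probe gave 0.42 ± 0.23 and did not pass (adjusted p = 0.214). Against wild type the knockout group differed by -0.19 ± 0.2 and 0.09 ± 0.2 for the 2 probes, neither of which passed.

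Cdk6 encodes the second kinase of the D cyclins, prominent in blood progenitors and early thymocytes. Its 1 probe (ILMN_1259714) had log2 signals of 6.66, 9.1, 9.15, 5.86, 7.62 and 6.08 in wild-type replicates 1 to 6. NHD13 had 7.41, 6.35 and 9.29, and the knockout group had 4.93, 5.66 and 6.44, the first of them not detected. The knockout arrays were low, but the wild-type range of 3.29 (wider than for 99.4% of kept probes) reached down to 5.86. The changes of -2.01 ± 0.96 against NHD13 and -1.74 ± 0.83 against wild type did not pass (adjusted p from limma of 0.158 and 0.213). In none of 19 and 24 alternative settings did they pass, with lowest adjusted p of 0.0506 and 0.0564. NHD13 against wild type gave 0.27 ± 0.83.

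Cdkn1a encodes p21, an inhibitor of CDK2 complexes and a target of p53. Its brightest probe (ILMN_2634083) had log2 signals of 7.76 to 8.94 in wild type, with a median of 8.48. NHD13 replicates 1 to 3 had 8.03, 5.29 and 6.71, and the knockout group had 9.68, 7.84 and 6.92. NHD13 replicates 2 and 3 lay below wild type and replicate 1 lay inside it. The change of -1.77 ± 0.61 missed the threshold (adjusted p = 0.0566 from limma). It passed without knockout replicate 1 in the fit (0.0204) and without NHD13 replicate 1 (a change of -2.45, 0.0167). With the class as a block it was -1.48 (0.18). The second probe (ILMN_2846775), detected on 12 arrays, changed less in NHD13, by -0.92 ± 0.53 (adjusted p = 0.253 from limma). For the dimmest probe, undetected in NHD13, the fall was at least 1.15-fold and did not pass (adjusted p = 0.193).

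The lowest Cdkn1a array, NHD13 replicate 2, was the NHD13 array with the high myeloid sum, while the highest, knockout replicate 1, had a high one too. Their part in the Cdkn1a values was not tested. The dimmest of its 3 probes (ILMN_2846776) was not well above background on any NHD13 array and was detected on all 3 knockout arrays, at 7.04, 5.99 and 5.55. It was at least 1.71-fold higher there (adjusted p = 0.0381 from limma), the bound being set by the lowest detected signal of each NHD13 array. Without knockout replicate 1 that call was lost (adjusted p = 0.114). The brightest probe gave 1.48 ± 0.7 and did not pass (adjusted p = 0.157). Nor did the second probe, with 0.76 ± 0.62 (adjusted p = 0.417).

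Cdkn1b encodes p27, the inhibitor that builds up in resting lymphocytes, where its amount is set largely by protein degradation. Of its 3 probes, 2 were detected on 0 arrays. The third (ILMN_2638428) was detected on 6 of 12 arrays, at 4.97 to 6.83 in wild type (median 5.44), 5.23, 5.14 and 5.74 in NHD13 and 5.04, 6.29 and 6.07 in the knockout group. The groups overlapped, and no comparison passed in any alternative setting. Values this close to background limit what these arrays can show for Cdkn1b.

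Cdkn2a encodes p16Ink4a and, in another reading frame from the upstream start, Arf, which stabilises p53. The sources used here do not say which of the 2 a probe reads. The brighter probe (ILMN_1221177) was not well above background on any wild-type array, at 4.51 to 5.46. It was detected on all NHD13 arrays, at 7.19, 5.62 and 5.67, and on 2 of 3 knockout arrays, at 5, 6.7 and 6.58. Only these transgenic arrays brought the probe past the filter, so its p-values against wild type are no independent support for a rise. NHD13 lay above wild type on every array and was at least 1.7-fold higher by the bound, but missed the threshold (adjusted p = 0.0567 from limma). It passed without knockout replicate 1 in the fit (adjusted p = 0.0193). In the knockout group against wild type the bound was at least 1.62-fold (adjusted p = 0.104), and it passed without knockout replicate 1 (adjusted p = 0.0274).

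The second Cdkn2a probe (ILMN_1226950) gave the 1 member call against wild type in the knockout group. It read 4.4 to 5.39 in wild type, undetected throughout, and 5.53, 6.96 and 7.29 in the knockout group, detected on all 3. All knockout arrays were higher, by at least 2.28-fold (adjusted p = 0.0238 from limma). With the class as a block the adjusted p was 0.052 and against wild-type replicates 1 to 3 alone, of the same class, 0.105. Without knockout replicate 1 it was 0.00948. In NHD13 the probe read 6.79, 5.03 and 4.94, with only the first array detected. Transgenic arrays alone brought this probe past the filter too, so its p-values against wild type are likewise no independent support. The third Cdkn2a probe (ILMN_1227342) was detected on 2 arrays and was not tested.

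Cdkn2c encodes p18Ink4c, an INK4 inhibitor of dividing lymphocytes and thymocytes. Its brightest probe (ILMN_1228366) had log2 signals of 9.38 to 10.2 in wild type, with a median of 9.74. NHD13 had 10.54, 8.87 and 8.68, and the knockout group 7.69, 10.16 and 10.26. In each transgenic group replicate 1 went against the other 2, above them in NHD13 and below them in the knockout group. No comparison passed, with -0.39 ± 0.54, 0.01 ± 0.62 and -0.39 ± 0.54 in the order given above. Across the 3 probes, the difference of knockout replicate 1 from the mean of replicates 2 and 3 was -2.34 to -2.75. In NHD13 the other 2 probes had opposite signs, -1.25 ± 0.59 for ILMN_2420939 and 0.8 ± 0.49 for ILMN_1215651, and neither passed.

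Cdkn2d encodes p19Ink4d, an INK4 inhibitor of CDK4 and CDK6 found in many resting and differentiating cells. Its 1 probe (ILMN_1225214) had log2 signals of 8.3 to 9.35 in wild type, with a median of 8.91. NHD13 replicates had 10.52, 10.12 and 10.4, and knockout replicates 9.29, 9.55 and 8.88. Every NHD13 array was above every other array, and the knockout group overlapped wild type.

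Cdkn2d rose in NHD13 by 1.49 ± 0.24, or 2.8-fold (adjusted p = 0.00172 from limma). It passed in 25 of 25 alternative settings, with changes of 1.17 to 1.84. Set against only the 3 wild-type arrays that match NHD13 in class and sex (replicates 4 to 6), the change was 1.17 (adjusted p = 0.0137). In the knockout group it fell from NHD13 by 1.11 on the log2 scale, with SE 0.28 (adjusted p = 0.0158), a 2.16-fold difference. That call held in 14 of 19 alternative settings. With the class as a block the change was -0.48 (adjusted p = 0.287). Wild type itself averaged 8.55 in class 1 and 9.18 in class 2. These wild-type sets also differ in sex, so class and sex cannot be told apart in this adjustment. The fall from NHD13 to knockout also missed the threshold without NHD13 replicate 3 (0.0513) and without knockout replicate 3 (0.0565). Against wild type the knockout change was 0.37 ± 0.24 (adjusted p = 0.363).

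Stage and cell type markers moved with the same NHD13 arrays. Rag1, which cuts the receptor genes in the middle double-negative stages, fell in NHD13 by 4.94 on the log2 scale. It was 1 of 3 such markers that fell, out of 5, while Il2ra (0.35) and Dntt (-0.97) did not pass. Kit, a receptor of early progenitors, rose by 2.76. It was 1 of 3 progenitor markers that rose, out of 4, while Cd34 (a change of 0) did not pass. The log2 summed signal of 5 such middle-stage markers spanned 12.99 to 13.26 over wild-type arrays, 11.66 to 12.2 over NHD13 arrays and 10.13 to 13.36 over knockout arrays. That of 4 early progenitor markers spanned 10.62 to 11.23, 13.45 to 14.38 and 10.88 to 13.93 in the same order. The NHD13 arrays lay outside the wild-type range for both sets. They also lay above it for the marker sets of other cells given next. The summed signal of 3 gamma delta T cell markers was 11.41 to 11.71, 13.56 to 13.96 and 10.08 to 14.02, and 2 of them rose in NHD13, Sox13 by 1.23 and Cd163l1 by 2.36. That of 5 NK and innate lymphoid markers was 13.12 to 13.43, 13.93 to 14.14 and 12 to 13.36, although Nkg7 rose by 1.47 while Klrb1c fell by 2.37. For 2 stromal markers it was 9.22 to 9.69, 10.36 to 10.44 and 8.97 to 9.24, with a rise of 1.02 for Pecam1. For 2 markers of the CD4+CD8+ stage it was 11.33 to 12.41, 12.65 to 13.54 and 11.94 to 12.5, with a rise of 1.09 for Cd8b1. These 2 sums mostly reflect those single genes, since Krt8 and Cd4 were near background and changed by 0.14 and -0.11. Neither of them passed (adjusted p = 0.705 and 0.8 from limma). Of 7 stromal markers with a probe only 2 were measured, and Epcam, Krt5, Foxn1 and Col3a1 were detected on 0 arrays. The summed signal of 2 measured red cell genes was 5.7 to 8.1, 10.07 to 12.86 and 6.4 to 7.7 in the same order. Of these, the haemoglobin gene Hba-a1 read 11.7, 12.85 and 10.02 in NHD13, 4.73 to 7.88 in wild type and 4.58, 5.5 and 7.39 in the knockout group. It rose in NHD13 by 5.24 (adjusted p = 0.00104 from limma), while Klf1, an erythroid factor, did not pass (adjusted p = 0.154). Of 5 red cell genes with a probe the others were not kept. Hbb-b2 and Alas2 were each detected on 1 NHD13 array only, and Epor on 1 wild-type array. In bulk RNA, fewer cells of a type and less RNA per cell cannot be told apart, and the part of these markers in the Cdkn2d and Cdk4 values was not tested.

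**Figure D3:**
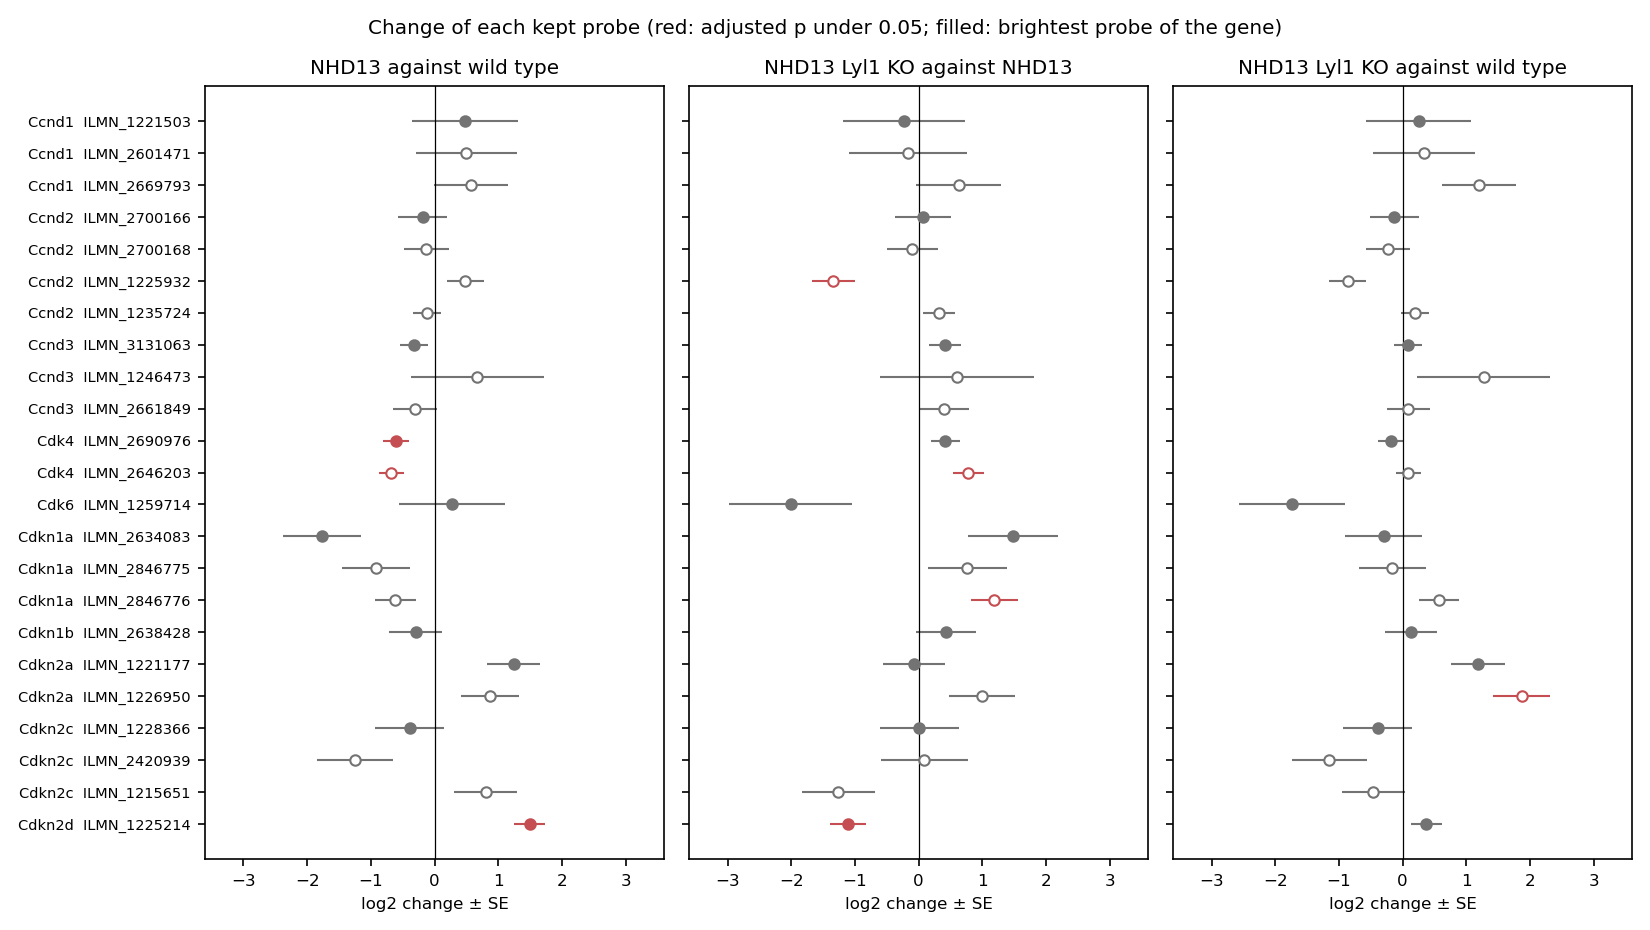
Log2 change with its SE for each of the 23 kept probes in the 3 comparisons, red where the adjusted p is under 0.05 and filled for the brightest probe of a gene. Cdkn2d and both Cdk4 probes are red in NHD13 against wild type, and 1 Cdkn2a probe is red in the knockout group against wild type. For probes undetected throughout a group, among them that one, the plotted change is no bound.

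Around the members, genes of the same pathway were counted from lists by role, to be read against the shares of all genes called higher and lower: 11.6% and 12.6% in NHD13 against wild type and 4.49% and 3.81% in knockout against wild type. In knockout against NHD13, 22.2% were called in either direction and 9.22% lower. Of 13 RB, E2F and DP genes, 1 rose and 4 fell in NHD13, with a median change of -0.46. E2f1, an activator of S phase genes, fell by 1.31 on the log2 scale (adjusted p = 0.00245 from limma), from 10.86 to 11.09 in wild type to 10.37, 9.08 and 9.55. Tfdp2, a dimer partner of E2F, rose by 0.98. The 4 genes that fell became 1 with median scaling, with the replicate block or without NHD13 replicate 3, and 2 without NHD13 replicate 2, without wild-type replicate 2, 3 or 6, against wild-type replicates 1 to 3 alone or with sex as a covariate. The E2f1 and Tfdp2 calls held in each of 21 alternatives. In the knockout group against NHD13, 2 rose and 2 fell, among them E2f1 with 1.25 and Tfdp2 with -1.01. The genes that rose in that comparison numbered 5 without NHD13 replicate 1, 4 without knockout replicate 1 and 1 with only those groups fitted, where E2f1 missed the threshold (adjusted p = 0.0664). With the class as a block Tfdp2 missed it (adjusted p = 0.141). Against wild type 1 of 13 rose there, E2f5, by 0.67, and 0 fell. That call held in 9 of 20 alternatives and was lost with the class as a block (adjusted p = 0.0865), without knockout replicate 1 (0.127) or 3 (0.121), and without wild-type replicate 1, 4, 5 or 6.

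Of 8 measured genes of cyclin E and A, CDK2 and its activators, 0 rose and 6 fell in NHD13, with a median of -0.9. The 6 became 3 with median scaling, with the replicate number or the class as a block, without NHD13 replicate 3 or against wild-type replicates 1 to 3 alone, and 2 without NHD13 replicate 2 or against wild-type replicates 4 to 6 alone. Ccne2, a cyclin E gene, fell most, by 2.53 on the log2 scale (adjusted p = 0.00345 from limma). Its log2 signals were 8.33 to 10.02 in wild type, 7.39, 6.64 and 5.61 in NHD13 and 6.12, 7.74 and 7.09 in the knockout group. Both transgenic groups lay below all wild-type arrays, and the knockout group also fell against wild type, by 2.09 (adjusted p = 0.0184). That fall did not pass without knockout replicate 1 (adjusted p = 0.0774) or against wild-type replicates 4 to 6 alone (0.0902). Ccne1, the other cyclin E gene, fell in NHD13 by 1.11 and was higher in the knockout group than in NHD13 by 1.17 (adjusted p = 0.0477). The fall held in 13 of 21 alternatives and the second call in 7 of 15; without NHD13 replicate 2 the adjusted p was 0.104 and 0.121, and without replicate 3 it was 0.154 and 0.163. Leaving out any 1 knockout array also ended the second call. From NHD13 to knockout 3 of the 8 rose and 0 fell, and 1 rose with the class as a block, with only those groups fitted, or without NHD13 replicate 2 or 3 or knockout replicate 2 or 3.

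Among the measured inhibitor genes, the one with the widest difference in the knockout group was outside the 10 members. Cdkn1c encodes p57, the third CIP/KIP inhibitor, known from quiescent blood stem cells. Its log2 signals were 5.32 to 5.76 in wild type, 7.24, 5.46 and 4.98 in NHD13 and 8.19, 9.34 and 8.67 in the knockout group. All knockout arrays were above all others. The gene was 7.16-fold higher than in NHD13 (2.84 ± 0.47, adjusted p = 0.00208 from limma) and 9.01-fold higher than in wild type (3.17 ± 0.4, adjusted p = 0.00132). Cdkn3, a phosphatase that acts on CDK2, was the other measured gene of this list of 3 and rose by 1.62 from NHD13 to knockout (adjusted p = 0.0206). The Cdkn1c calls held in 15 of 15 and 20 of 20 alternatives. That of Cdkn3 was lost with only those groups fitted (adjusted p = 0.103), and without NHD13 replicate 2 (0.0811) or 3 (0.0818) or knockout replicate 1 (0.0611) or 2 (0.0562).

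Of 15 measured genes that act in S phase or mitosis, 14 fell and 0 rose in NHD13, with a median change of -1.32. Aurkb, a mitotic kinase, had 10.32 to 11.25 in wild type, 10.12, 9.07 and 7.73 in NHD13 and 11.38, 11.3 and 10.38 in the knockout group. For this gene all NHD13 arrays were lower than the others. For several others of the 15 genes, NHD13 replicate 1 lay inside the wild-type range and only replicates 2 and 3 lay below it. Aurkb fell in NHD13 by 1.86 (adjusted p = 0.0103 from limma), and Rrm2, a subunit of ribonucleotide reductase, by 1.78. Rrm2 missed the threshold without NHD13 replicate 2 (adjusted p = 0.0555) or 3 (0.0703), and Aurkb against wild-type replicates 1 to 3 alone (0.0588). The count of 14 was 4 with the replicate block or against wild-type replicates 1 to 3 alone, 15 with the class as a block, 12 against replicates 4 to 6 alone, and 5 without NHD13 replicate 2, without NHD13 replicate 3 or with median scaling. From NHD13 to knockout 4 rose and 0 fell, with a median of 0.92. The 4 became 0 with only those groups fitted, 1 without NHD13 replicate 2, NHD13 replicate 3 or knockout replicate 2, 2 with the replicate block and 3 with the class as a block. They became 13 without NHD13 replicate 1, 12 with array weights, 9 with sex as a covariate, 7 without background correction and 6 with median scaling. Against wild type 0 of 15 passed in the knockout group.

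Of 10 measured genes linked to quiescence, 4 rose and 0 fell in NHD13, with a median of 0.72. Klf2, a factor that holds T cells at rest, rose by 2.7 (adjusted p = 0.00183 from limma). It read 10 to 10.67 in wild type, 12.97, 13.6 and 12.7 in NHD13 and 8.42, 10.67 and 10.89 in the knockout group. Tsc22d3, a glucocorticoid-induced gene, rose by 2.11. Both calls held in each of 21 alternatives, and the count of 4 was 2 with the replicate number or the class as a block or without NHD13 replicate 2, 7 with median scaling and 6 with sex as a covariate. From NHD13 to knockout 1 rose and 4 fell, with changes of -3.1 for Klf2 and -2.06 for Foxo1, a factor that drives Klf2 and inhibitor genes. Those counts became 0 and 2 with only the 2 groups fitted and 1 and 2 with the class as a block; in both fits Foxo1 missed the threshold (adjusted p = 0.0768 and 0.0686). The 1 gene that rose did not pass without NHD13 replicate 1 or 2 or knockout replicate 1 or 2. Against wild type 0 of 10 passed in the knockout group, and 1 with the class as a block, with median scaling, with sex as a covariate, without knockout replicate 2 or against wild-type replicates 4 to 6 alone.

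Of 14 measured regulators known to act on the members in thymocytes, 2 rose and 4 fell in NHD13, the 2 being Lyl1 and its partner Lmo2. Lmo2 did not pass when any 1 wild-type or NHD13 array was left out. The 4 genes that fell became 1 with median scaling, with the replicate block or without NHD13 replicate 3, and 2 without NHD13 replicate 2 or against wild-type replicates 4 to 6 alone. Myc, whose product induces D cyclin and Cdk4 genes, fell by 2.15 (adjusted p = 0.000759 from limma), from 8.55 to 9.39 in wild type to 7.09, 7.44 and 6.04. In the knockout group it read 7.8, 8.29 and 8.2, higher than in NHD13 by 1.24 (adjusted p = 0.0248). All knockout arrays still lay below every wild-type array, though the change of -0.9 ± 0.3 did not pass (adjusted p = 0.0782 from limma). The fall of Myc held in each of 21 alternatives and the second call in 7 of 15. It was lost with the class as a block (adjusted p = 0.0688), with only those groups fitted (0.0864), with median scaling (0.093) and without NHD13 replicate 3 (0.0881) or knockout replicate 2 (0.077) or 3 (0.0642). Bmi1, a Polycomb protein known to repress Cdkn2a, had 7.64 to 8.64 in wild type and 6.2, 6.25 and 6.65 in the knockout group, a fall of 1.78 (adjusted p = 0.00295). It also fell from NHD13 to knockout, by 1.23 (adjusted p = 0.0163), which missed the threshold without NHD13 replicate 2 (0.0643) or knockout replicate 2 (0.0519). Of 5 measured ubiquitin ligase genes that act on G1 cyclins and p27, 1 rose in NHD13 and none fell, while 2 fell without NHD13 replicate 1. The 1 that rose did not pass without NHD13 replicate 3 or against either set of 3 wild-type arrays alone. Skp2, which marks p27 for degradation, fell in the knockout group against wild type by 1.07 (adjusted p = 0.011). Its adjusted p was 0.0567 with the replicate block and 0.0608 with wild-type replicates 4 to 6 as the only controls.

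**Figure D4:**
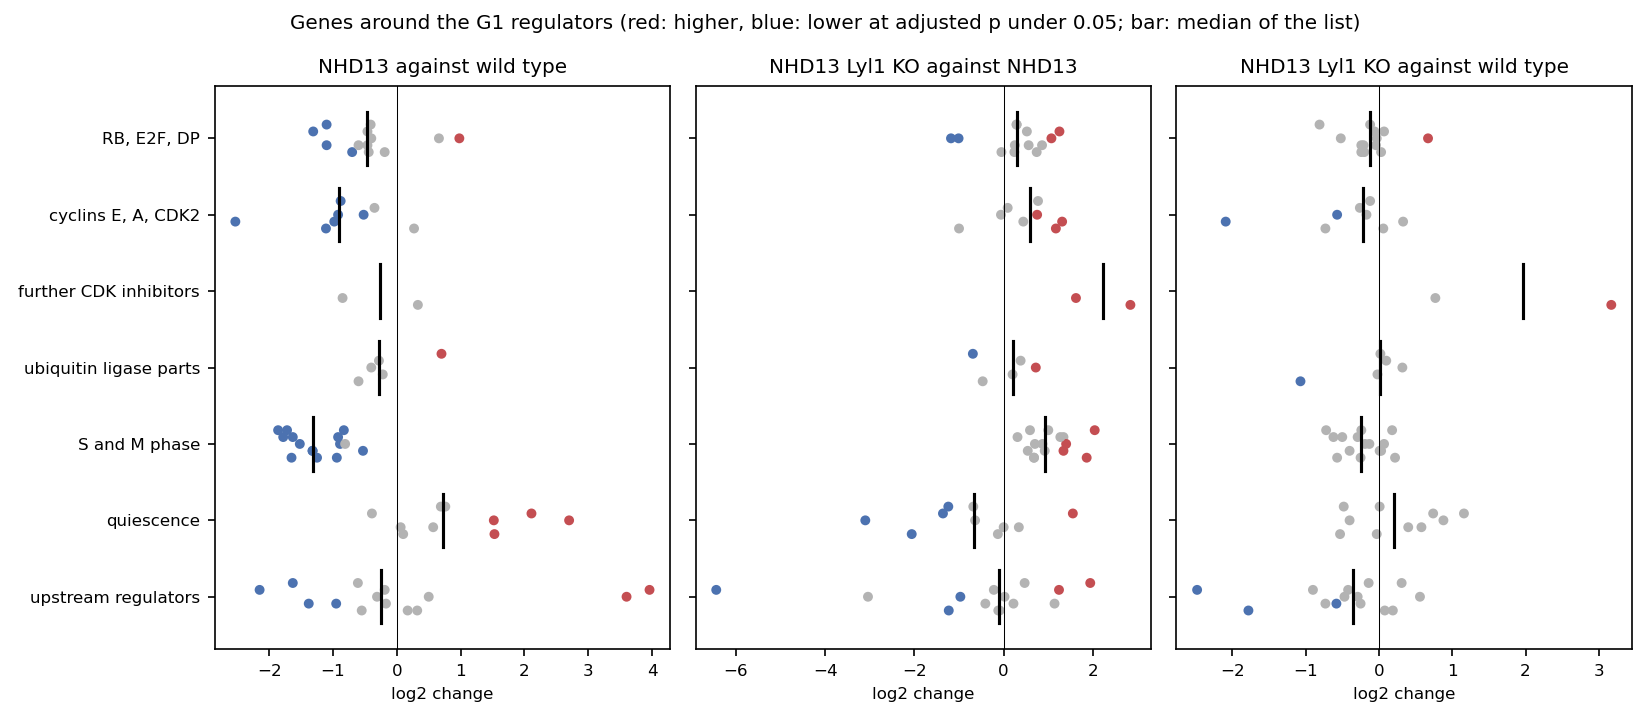
Log2 change of each measured gene of 7 lists in the 3 comparisons (each panel has its own axis), red for higher and blue for lower at an adjusted p under 0.05, with a bar at the median of each list. In NHD13 against wild type, 14 of 15 genes of S phase and mitosis are blue and 4 of 10 quiescence genes are red.

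For the 3 members with the widest range of group means, the genes with the most similar pattern were found by the root mean square difference of centred log2 values over the 12 arrays. Closest to Cdkn2d were Rrad (0.219), 4930402H24Rik (0.246) and Ass1 (0.249). Closest to Cdkn1a were Prkar2b (0.479), Cox6a2 (0.551) and Maged1 (0.583). For Cdk6 no gene came nearer than Ikzf2 (0.725), followed by P2ry10 (0.728) and Ctps2 (0.736). These distances share the same arrays and come with no test.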

How the data were processed

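Total RNA (about 300 ng) was hybridised to 12 Illumina MouseWG-6 v2.0 arrays, per the labels. The deposited table gives a bead-summarised intensity and a detection p-value for each probe, per the file headers; BeadStudio and limma are named, without role or version, per the submitters' processing notes. A second deposited table holds log2 values by an unstated route and served as an alternative.

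Intensities were normalised with neqc of limma 3.58.1 (R 4.3.3; offset 16, quantile normalisation, log2). A linear model with 1 mean for each group was fitted to the 12 arrays, and 3 contrasts were tested with eBayes and Benjamini-Hochberg adjustment over the 20416 kept probes. A gene took its brightest kept probe. The platform annotation named 1 gene for 34885 probes, several for 18 and none for 10378. For a group with no detected array, folds are lower bounds. The number of arrays limits precision. Every member was named; other lists were limited to 3 called genes per direction and comparison, by size of change. The members and lists were chosen with earlier results of these data known. The scripts were tested on simulated data. Alternatives varied background correction, scaling, filter, blocks, weights, arrays and threshold, and 3 settings without knockout replicate 1 were added after seeing the data.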

Additional observations from a re-analysis of the deposited data

Results flagged for a closer look

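Among 23 member probes tested in the 6 wild-type arrays, 1 had an array far from the rest, where chance flags about 1 in 20 such groups. For the Cdkn2a probe ILMN_1226950, wild-type replicate 1 read 5.39 and the next highest 4.69, a gap of 0.708 of the whole range, above Dixon's critical value for 6 arrays. The probe was not detected on that array or on any other wild-type array.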

How the results depend on the processing

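No member gene that was called changed sign in any alternative. For NHD13 against wild type (2 genes called), 1 passed with no filter, with the replicate block, with the class as a block, at an adjusted p under 0.01, against wild-type replicates 1 to 3 or 4 to 6 only, and with class-matched wild type and knockout replicate 1 left out; 4 passed with the stricter filter and with array weights. For knockout against NHD13 (1 gene), 0 passed with the class as a block and at 0.01, and 2 with array weights and with the class as a block without knockout replicate 1. For knockout against wild type (0 genes), 1 passed with array weights, with the mean of all probes of a gene, and with class-matched wild type without knockout replicate 1. That gene was Cdkn2a, which passed in 4 of 24 alternatives there and in 4 of 25 for NHD13 against wild type. Only transgenic arrays brought its tested probes past the filter, so these passes are no independent support for a rise. Leaving out 1 array gave 1 to 4, 0 to 3 and 0 to 1 genes, and 2246 to 5084, 2357 to 4648 and 1123 to 1613 of all probes (4295, 4284 and 1953 in the fit reported). NHD13 against wild-type replicates 4 to 6 only called 2780 probes, knockout against NHD13 with only those groups 1998, and knockout against wild type 2996 with median scaling and 3045 with the class as a block. Median scaling moved the median of all genes from -0.00108 to 0.284 in NHD13 against wild type and from 0.0839 to 0.333 in knockout against wild type. The higher and lower probes then numbered 3456 and 838 in place of 1999 and 2296, and 2218 and 778 in place of 831 and 1122. On that scale Cdk4 changed by -0.32 in NHD13 (adjusted p = 0.391 from limma). Deviations of same-numbered arrays from their group means correlated at -0.149 to 0.167. The class and sex split within wild type and the outlying knockout replicate 1 enter these deviations, so they cannot settle whether arrays were paired. With the replicate block 1, 1 and 0 genes and 3517, 3185 and 1393 probes passed. The cause of these shifts was not tested. Probes near background (Cdkn1b, Cdkn2a) limit what can be measured.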
